A study of Mus musculus with 32 samples.

Results

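The question here was whether the diet difference in the liver transcriptome of FAAH S268D mice departed from the diet difference in wild-type mice, gene by gene and function by function. For each gene the quantity was the NASH-AA minus NASH difference in FAAH S268D livers, minus the same difference in WT livers, in log2 units (the interaction estimate). A value above 0 means that the diet difference lay higher in the mutant, and a value below 0 that it lay lower. All 32 of the 32 libraries entered, and 14899 of the 55487 gene identifiers in the table were abundant enough to test. The libraries are mRNA-seq of whole mouse liver in 4 groups of 8: WT mice on the diet labelled NASH, WT mice on NASH-AA, and mice with the FAAH S268D allele on each of these diets. The submitters describe 28 weeks of HFFC feeding with or without ARA, and no group was on any other diet. The labels spell out none of these diet names. They give no age or sex and do not say that replicates are separate animals, so p-values measure the spread between these libraries, which may be technical.

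FAAH is the membrane hydrolase that breaks down anandamide, other N-acyl ethanolamines and N-acyl taurines, and the S268D substitution is known as one that impairs the hydrolysis of N-acyl taurines while sparing that of the ethanolamides. Arachidonic acid, whose acyl taurine the study's title names, is a polyunsaturated fatty acid that feeds both the eicosanoid and the endocannabinoid pathways, and polyunsaturated fatty acids are known to hold back SREBP, the transcription factor family that switches on lipogenic and sterol genes in hepatocytes. In steatohepatitis the liver gathers monocyte-derived macrophages and lymphocytes, and stellate cells lay down matrix.

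Total counts ran from 3851400 in FAAH S268D NASH replicate 1 to 34370039, with a median of 22896439 and a second lowest of 14743013. Hepatocyte markers were abundant in every library (Alb at 31370 to 67310 CPM, counts scaled to library size), and the adipocyte marker Lep and the pancreas markers Prss1 and Ins2 were at 0 in all 32. Faah (ENSMUSG00000034171, chr4:115967145-116017926, minus strand, GRCm38) ran from 132.6 to 187.5 CPM in WT NASH (median 151.4) and from 140.1 to 165.8 in WT NASH-AA (median 156.5). In FAAH S268D it ran from 162.7 to 226.8 CPM on NASH (median 185.1) and from 165.5 to 192.8 on NASH-AA (median 178.3). The diet groups overlapped in both genotypes, and the interaction estimate was -0.062 ± 0.085 (SE; limma-voom, unadjusted p = 0.475, adjusted p = 0.929). The allele is a coding substitution, so the transcript level does not check the genotype labels.

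No gene had a diet difference that departed between the genotypes past the threshold: limma-voom called 0 of 14899 genes (0%) at an adjusted p under 0.05, and the smallest adjusted p was 0.906. At an unadjusted p under 0.05 it listed 628 genes (4.22%), 299 with a higher estimate in the mutant (2.01%) and 329 with a lower one (2.21%). The median estimate over all genes was 0.010, and 7807 genes (52.4%) lay above 0. The median standard error was 0.16, with quartiles of 0.11 and 0.29. In simulated data of the same size, the same test recovered 52 of 100 genes with a 1.5-fold interaction. It recovered 79 of 100 with a 2-fold one and 97 of 100 with a 4-fold one. All these changes were planted together, among the more abundant genes, with noise drawn independently for each gene. That run made 240 calls, 12 of them false. Real genes vary together, and a change that stands alone faces a stricter adjusted cut, so these rates do not carry over to it. Every gene and list below is therefore a leaning among estimates of which none passed the adjusted threshold.

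Among the genes at an unadjusted p under 0.05, the usual shape was a crossing. Of the 299 with a higher estimate, 246 had diet differences of opposite sign in the 2 genotypes, with a median diet difference of -0.27 in WT and 0.13 in FAAH S268D. Of the 329 with a lower estimate, 258 had opposite signs, with medians of 0.20 in WT and -0.14 in FAAH S268D. Genes were chosen here by the size of that very difference, so these counts describe them and test nothing. Across all 14899 genes the diet differences of the 2 genotypes, which share no library, had a Pearson correlation of 0.545, given as a description, since genes are not independent.

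**Figure D1:**
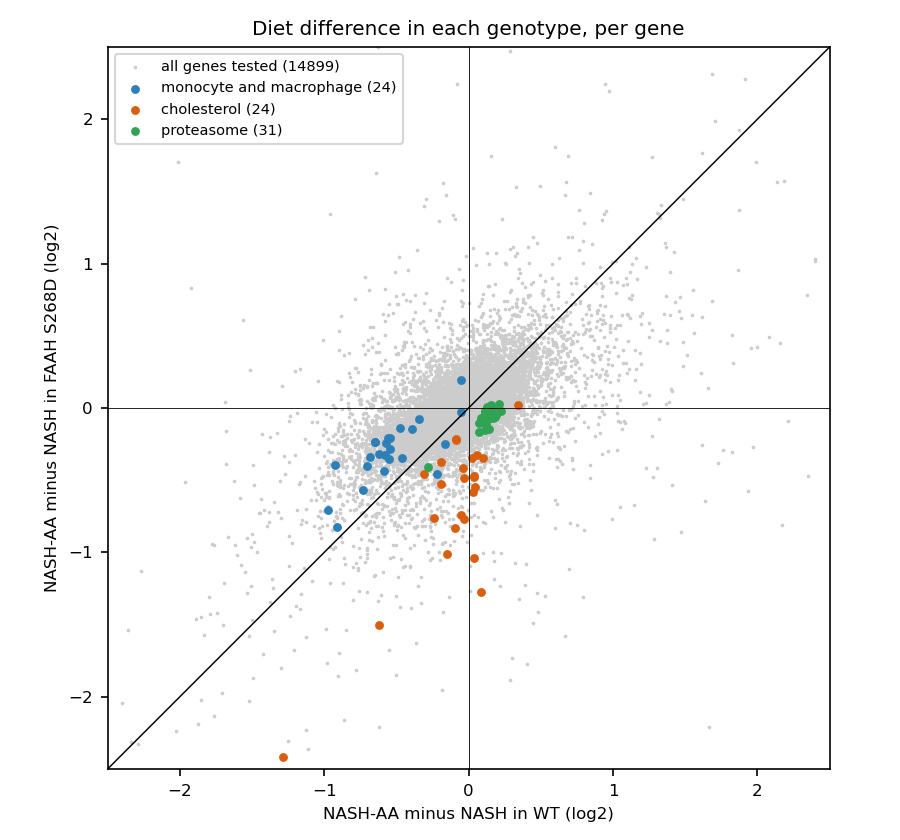
Diet difference (NASH-AA minus NASH, log2) in WT on the horizontal axis and in FAAH S268D on the vertical axis, 1 point per gene tested; the diagonal marks equal differences and 22 genes lie outside the axes at 2.5. Members of the cholesterol and proteasome lists lie below the diagonal, and 22 of 24 monocyte and macrophage markers lie above it.

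Functions were described with 63 gene lists, 62 of which had at least 5 members tested. The lists set first are the 8 with the highest and the 8 with the lowest median interaction estimate among those with at least 8 members tested. On the high side these were MHC class II antigen presentation (median 0.40), T and NK cell markers (0.37), dendritic cell markers (0.32), cholangiocyte and ductular markers (0.28), chemokines, cytokines and adhesion (0.27), monocyte and recruited macrophage markers (0.26), stellate cell activation and extracellular matrix (0.22) and sinusoidal endothelial markers (0.19). On the low side were major urinary proteins (-0.99), cholesterol synthesis and uptake (-0.51), fatty acid synthesis (-0.51), conjugation enzymes (-0.23), lipid droplet coat and lipases (-0.21), lipoproteins and their assembly (-0.21), the proteasome (-0.19) and nuclear genes of oxidative phosphorylation (-0.18). Genes of one list vary together from library to library, so a count of members is not a count of independent measurements.

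The labels number the libraries from 1 to 32, and the lower and the upper 16 each hold all 4 groups, with 4, 3, 5 and 4 libraries (WT NASH, WT NASH-AA, FAAH S268D NASH, FAAH S268D NASH-AA) among numbers 1 to 16 and 4, 5, 3 and 4 among numbers 17 to 32. The labels do not say what the numbers stand for. Fitted alone, the 2 ranges gave the same sign for 6 of the 8 lowest lists, but for 2 of the 8 highest. Of all 62 lists described, 22 had the same sign in both. The lists set first were chosen by their medians over all 32 libraries, which hold both ranges, so these counts are a description. The cholesterol list had a median of -0.34 in numbers 1 to 16 and -0.87 in 17 to 32, fatty acid synthesis -0.25 and -0.86, the proteasome -0.31 and -0.099, and major urinary proteins -0.96 and -0.52. The matrix list went from 0.82 in numbers 1 to 16 to -0.43 in 17 to 32, chemokines and cytokines from 0.66 to -0.12, and monocyte markers from 0.55 to -0.036. Whether the estimates differ between the ranges was not tested. With a term for the range in the fit of all 32 libraries, no median of these lists changed sign. That of dendritic cell markers, for example, went from 0.32 to 0.30. Such a term shifts all 4 groups of a range alike, so it cannot show whether the interaction differs between the ranges.

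**Figure D2:**
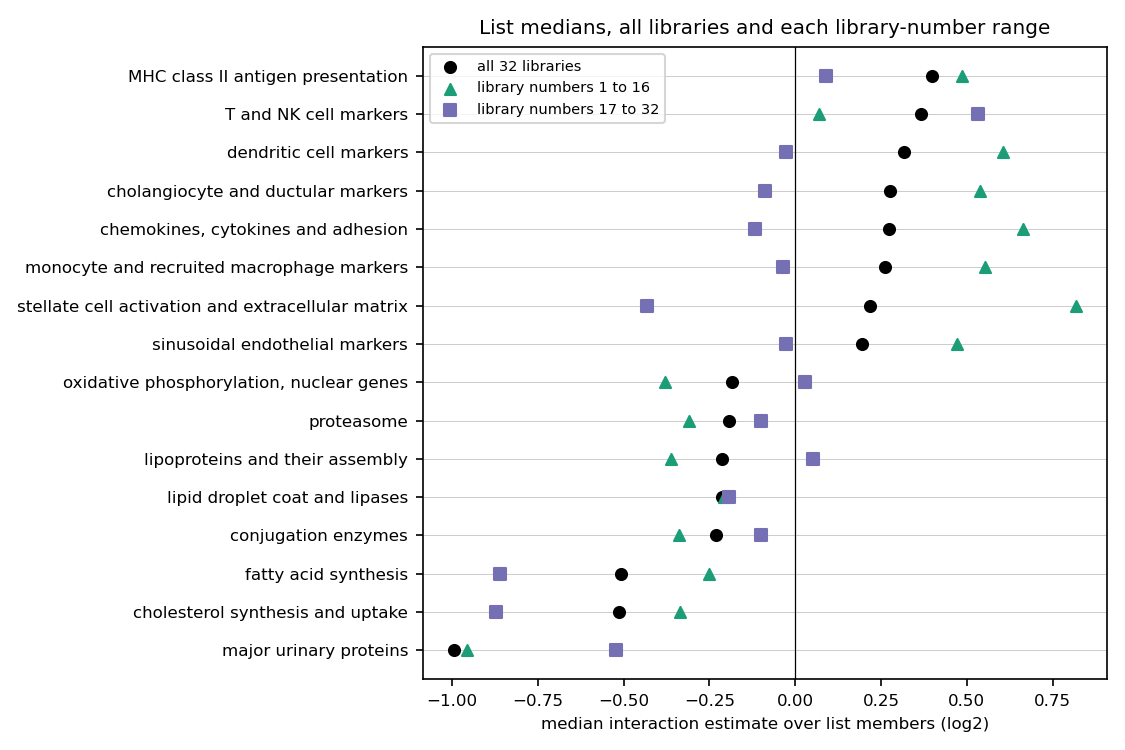
Median interaction estimate (log2, horizontal axis) over the tested members of each of the 16 lists set first, from all 32 libraries (circles), library numbers 1 to 16 (triangles) and 17 to 32 (squares). The sterol and fatty acid synthesis medians lie below 0 in each, whereas the matrix median is 0.82 in one range and -0.43 in the other.

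In the list of cholesterol synthesis and uptake all 24 members had an estimate below 0 (47.6% of all genes did), 5 of them at an unadjusted p under 0.05, a share of 20.8% against 2.21% of all genes. The diet difference had a median of -0.036 in WT, with 14 of 24 members below 0, and of -0.50 in FAAH S268D, with 23 of 24 below 0. The list score, which is the mean over members of log2 CPM minus each gene's own mean, averaged 0.10 ± 0.38 (SD, n = 8) on NASH and -0.01 ± 0.45 on NASH-AA among WT libraries. Among FAAH S268D libraries it averaged 0.29 ± 0.58 on NASH and -0.38 ± 0.33 on NASH-AA. All groups overlapped, and the mutant on NASH held the highest as well as the lowest library score of the 32. The lowest, -0.90 in replicate 3, pulled that group down, and without that library the list median was -0.63 with 13 members at an unadjusted p under 0.05. With any single library left out the median stayed between -0.63 and -0.39 and no member turned positive, while the count at p under 0.05 moved past 1.5 times for 16 of the 32 libraries, down to 2 (without FAAH S268D NASH replicate 4, among others).

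The mevalonate arm of the pathway, which builds isoprenoid units from acetyl-CoA, held the members with the smallest p. Mvk, mevalonate kinase (ENSMUSG00000041939, chr5:114444269-114460591, plus strand), ran from 5.88 to 10.3 CPM in WT NASH (median 7.94) and from 7.02 to 10.4 in WT NASH-AA (median 8.26), which overlap throughout. In FAAH S268D it ran from 8.55 to 11.8 CPM on NASH (median 10.8) and from 6.05 to 8.93 on NASH-AA (median 7.26), where 7 of 8 NASH-AA libraries lay below the lowest NASH library. The diet difference of Mvk was 0.039 ± 0.097 (SE) in WT and -0.48 ± 0.10 in FAAH S268D, an interaction of -0.52 ± 0.14 (limma-voom, unadjusted p = 0.000832, adjusted p = 0.906), with estimates of -0.45 and -0.63 in the 2 ranges of library numbers. Fdps, which makes farnesyl diphosphate, ran from 22.7 to 101.3 CPM in WT NASH (median 80.6) and from 23.4 to 159.1 in WT NASH-AA (median 68.8). In the mutant Fdps ran from 17.98 to 143.0 CPM on NASH (median 96.7) and from 16.9 to 69.3 on NASH-AA (median 38.6), and no NASH-AA library reached the NASH median. The interaction of Fdps was -1.36 ± 0.58 (SE; limma-voom, unadjusted p = 0.0250, adjusted p = 0.906), with a diet difference of 0.085 in WT and -1.28 in the mutant.

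Later steps, which turn lanosterol into cholesterol, leaned alike. Dhcr7, the reductase of the last steps, had medians of 47.2 CPM in WT NASH and 35.1 in WT NASH-AA (ranges 21.8 to 50.8 and 25.4 to 66.8). In FAAH S268D the Dhcr7 medians were 53.5 CPM on NASH and 25.99 on NASH-AA (ranges 21.8 to 71.0 and 22.4 to 46.3), so that the diet groups overlapped in both genotypes. Its interaction was -0.73 ± 0.32 (SE; limma-voom, unadjusted p = 0.0295, adjusted p = 0.906). Hsd17b7, a sterol ketoreductase, had an interaction of -0.45 ± 0.21 (unadjusted p = 0.0442 by limma-voom).

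**Figure D3:**
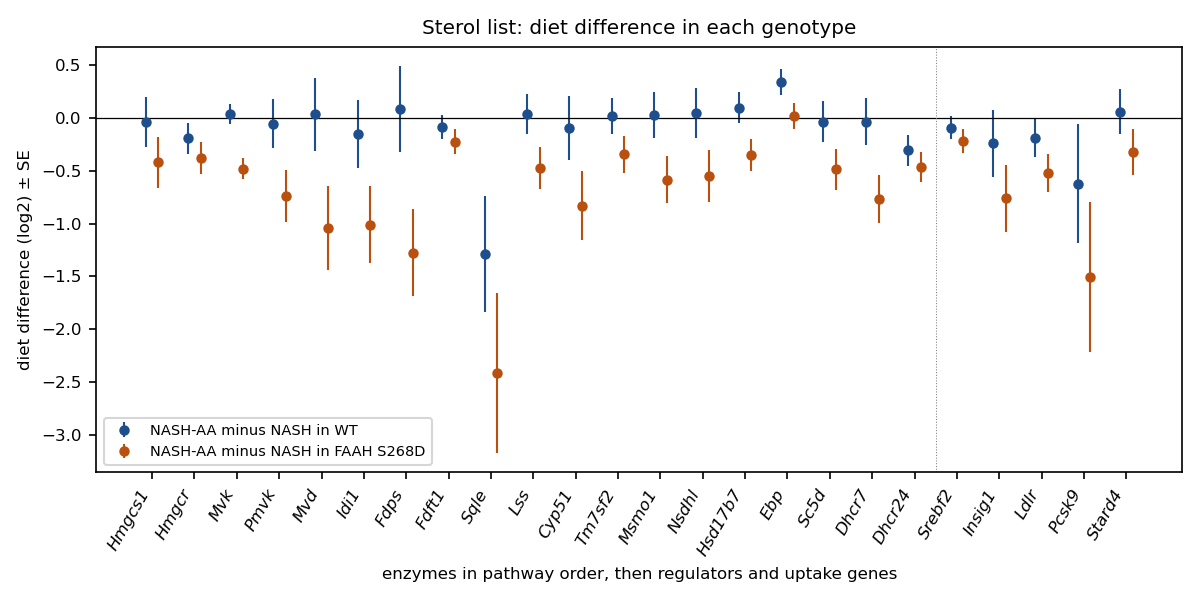
Diet difference (log2 ± SE, vertical axis) of the 24 sterol list members in WT (blue) and FAAH S268D (orange), enzymes in pathway order and then regulators and uptake genes. The orange point lies below the blue one for each of the 24 genes, and the error bars of many pairs overlap.

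Because sterol and proteasome members leaned together, the promoter windows of these lists were searched for the letters of motifs known for such genes, and 3 windows are shown. RefSeq windows (GRCm38.p6, 250 bases before to 50 after a start) matched 16 of the 24 sterol genes, with 19 windows, and 25 of the 31 proteasome genes, with 27 windows. CCAAT, the box bound by NF-Y, on either strand was in 16 of 19 sterol windows (84.2%) and in 37.4% of all 32851 windows. The sterol regulatory element letters TCACNCCAC were in 1 of 19 (5.26%, against 1.24%), the E-box CACGTG in 4 of 19 (21.1%, against 7.15%), and the antioxidant element letters TGACNNNGC in 4 of 27 proteasome windows (14.8%, against 12.4%). Among the 14021 windows of genes tested, CCAAT was in 37.6% and the sterol regulatory letters in 1.22%. The E-box was in 9.57% of them and the antioxidant letters in 14.1%. The antioxidant letters were also in 4 of 19 sterol windows (21.1%). Of the 27 proteasome windows, 10 held CCAAT (37.0%), 1 the E-box and 0 the sterol regulatory letters. The motifs were counted separately, and a match of the E-box can share bases with one of the sterol or antioxidant letters. A match is a description of the window and not a bound site, and where no match was found only these letters are missing. The Mvk window holds 5 CCAAT copies, a number reached by 89 of all windows (0.271%) and by 1 of the 19 sterol windows. Each sequence below is the part of the 250 bases before the start that no annotated exon covers, read 5′ to 3′ on the gene's strand, with CCAAT (or ATTGG) and CACGTG in capitals for Mvk, chr5:114444061-114444268 on the plus strand, and Hsd17b7, chr1:169969242-169969408 on the minus strand, and TGACNNNGC in capitals for Psmb5, chr14:54618023-54618245 on the minus strand.
Mvk: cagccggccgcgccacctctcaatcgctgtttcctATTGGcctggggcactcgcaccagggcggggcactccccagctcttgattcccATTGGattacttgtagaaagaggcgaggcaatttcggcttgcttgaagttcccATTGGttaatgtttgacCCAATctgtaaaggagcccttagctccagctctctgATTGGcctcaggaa
Hsd17b7: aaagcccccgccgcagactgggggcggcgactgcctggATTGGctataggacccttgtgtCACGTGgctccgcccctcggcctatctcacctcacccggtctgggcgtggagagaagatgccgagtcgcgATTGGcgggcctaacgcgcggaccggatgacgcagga
Psmb5: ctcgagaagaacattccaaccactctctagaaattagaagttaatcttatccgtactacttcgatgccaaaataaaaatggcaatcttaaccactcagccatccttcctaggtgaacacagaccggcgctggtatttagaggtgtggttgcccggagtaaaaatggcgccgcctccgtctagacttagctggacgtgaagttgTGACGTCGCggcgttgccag

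Fatty acid synthesis leaned by as much as sterol synthesis, with wider error. Of its 18 members tested, 17 had an estimate below 0. At an unadjusted p under 0.05 were 2 of these (11.1%, against 2.21% of all genes on that side). The diet difference had a median of 0.19 in WT and -0.34 in FAAH S268D, where 15 of 18 members lay below 0 against 5 of 18 in WT. Acss2, which makes acetyl-CoA from acetate, ran from 47.0 to 130.5 CPM in WT NASH (median 88.4), from 68.3 to 162.5 in WT NASH-AA (89.2), from 70.6 to 228.1 in FAAH S268D NASH (138.5) and from 71.8 to 119.3 in FAAH S268D NASH-AA (84.7). No mutant library on NASH-AA reached the mutant NASH median for Acss2, although the ranges overlapped, and the interaction was -0.83 ± 0.32 (SE; limma-voom, unadjusted p = 0.0148, adjusted p = 0.906). The citrate carrier Slc25a1 (-0.31 ± 0.16) and the lipogenic regulator Thrsp (-0.97 ± 0.51) had unadjusted p of 0.0665 and 0.0678. Without FAAH S268D NASH replicate 3 the median of the list was -0.65, with 7 members at an unadjusted p under 0.05.

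The lists of lipid droplet and of lipoprotein genes had medians below 0, and that of cholesterol export and storage one above 0 (0.16, 12 of 16 members above 0, with 0.040 and 0.079 in the 2 ranges of library numbers and 0.063 without FAAH S268D NASH replicate 1). In the lipid droplet list 14 of 17 members had an estimate below 0 (47.6% of all genes did). A single one of them had an unadjusted p under 0.05 (5.88%, against 2.21% of all genes on that side). It was Cideb, which enlarges droplets and loads lipoproteins (-0.31 ± 0.12, unadjusted p = 0.0131 by limma-voom). Plin2, the main droplet coat protein of hepatocytes, ran from 505.1 to 1028 CPM in WT NASH (median 871.1) and from 507.8 to 983.9 in WT NASH-AA (median 700.2). In FAAH S268D Plin2 ran from 338.5 to 1298 CPM on NASH (median 925.6) and from 371.3 to 584.1 on NASH-AA (median 553.9), and none of the 8 NASH-AA libraries reached the NASH median. The diet groups of Plin2 overlapped in both genotypes, and its interaction was -0.49 ± 0.27 (unadjusted p = 0.0835 by limma-voom). Abhd5, the activator of the lipase Pnpla2, and Plin3 had estimates of -0.17 ± 0.11 and -0.19 ± 0.14, neither at an unadjusted p under 0.05.

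In the lipoprotein list 17 of 21 members lay below 0, and 1 had an unadjusted p under 0.05 (4.76%, against 2.21% of all genes on that side). That member was Apoa1, the main protein of HDL (-0.30 ± 0.13, unadjusted p = 0.0306 by limma-voom). Apoa4, an apolipoprotein that follows hepatic fat content, had medians of 3558 and 1306 CPM in WT (NASH, NASH-AA) and of 3363 and 506.7 in FAAH S268D. In each genotype 4 of 8 NASH-AA libraries lay below the lowest NASH library for Apoa4, whose diet difference was -1.25 ± 0.39 (SE) in WT and -2.30 ± 0.36 in the mutant. The interaction of Apoa4 was -1.05 ± 0.53 (unadjusted p = 0.0561 by limma-voom). Apoc3, an inhibitor of lipoprotein lipase, had an estimate of -0.36 ± 0.18, whereas Lpl, the lipase itself, had one of 0.75 ± 0.43. The median of this lipoprotein list was -0.36 in library numbers 1 to 16 and 0.051 in 17 to 32, and -0.11 with sample quality weights.

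The proteasome leaned by small and even amounts. All 31 members had an estimate below 0, between -0.29 and -0.12, and 15 of them (48.4%) had an unadjusted p under 0.05, against 2.21% of all genes on that side. The median diet difference was 0.13 in WT, with 1 member below 0, and -0.050 in FAAH S268D, with 27 below 0. The score averaged -0.08 ± 0.13 (SD, n = 8) on NASH and 0.04 ± 0.08 on NASH-AA among WT libraries. Among FAAH S268D libraries it averaged 0.06 ± 0.18 on NASH and -0.02 ± 0.06 on NASH-AA, with all groups overlapping. With single libraries left out all 31 estimates stayed below 0, while the count at p under 0.05 was highest at 20, without FAAH S268D NASH replicate 5. It was lowest at 4 without WT NASH replicate 7, 6 without WT NASH-AA replicate 1 or FAAH S268D NASH replicate 4, 8 without the shallowest library or FAAH S268D NASH-AA replicate 2, and 9 without FAAH S268D NASH-AA replicate 3 or 7 or replicate 4 or 6 of WT NASH. In library numbers 1 to 16 no member and in 17 to 32 5 members lay above 0, with 4 and 2 members below 0 at an unadjusted p under 0.05. With sample quality weights the median was -0.12.

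Members of the 20S core, which cuts proteins, and of the 19S cap, whose ATPases unfold them, were alike. Psmb5, the chymotrypsin-like core subunit (ENSMUSG00000022193, chr14:54614119-54618022), had medians of 89.2 and 92.9 CPM in WT (NASH, NASH-AA) and of 91.2 and 84.6 in FAAH S268D. Its WT groups ran from 70.4 to 102.5 and from 89.4 to 119.9 CPM, and its mutant groups from 81.3 to 109.3 and from 76.7 to 92.5. All 8 WT libraries on NASH-AA lay above the WT NASH median of Psmb5 and 1 of 8 mutant libraries above its own, with an interaction of -0.29 ± 0.11 (SE; limma-voom, unadjusted p = 0.00996, adjusted p = 0.906). Psmc4, a cap ATPase, had medians of 92.2 and 95.9 CPM in WT and of 93.5 and 87.8 in the mutant (NASH, NASH-AA) and an interaction of -0.27 ± 0.097 (unadjusted p = 0.00884 by limma-voom). Its diet ranges overlapped in both genotypes, 73.4 to 103.2 against 91.4 to 107.1 CPM in WT and 83.1 to 119.0 against 83.2 to 91.7 in FAAH S268D. The cap ATPases Psmc2 and Psmc6 had estimates of -0.27 ± 0.10 and -0.19 ± 0.079.

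The nuclear genes of oxidative phosphorylation, which encode most subunits of the respiratory chain, had all 55 estimates below 0 but 2 at an unadjusted p under 0.05, Cox8a (-0.30 ± 0.13) and Ndufb3 (-0.25 ± 0.12), a share near that of all genes. Ndufs6 and Uqcrc2 had estimates of -0.28 ± 0.14 and -0.17 ± 0.090. Their diet differences had a median of 0.16 in WT, with none below 0, and -0.020 in FAAH S268D. In library numbers 1 to 16 all 55 lay below 0 with a median of -0.38, and in 17 to 32 36 of 55 lay above 0 with a median of 0.028. With sample quality weights the median was -0.089. Leaving out single libraries took the count at p under 0.05 from 0 (without WT NASH replicate 7, among others) to 23 (without FAAH S268D NASH replicate 6). The 13 mitochondrially encoded genes had a median of -0.036.

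**Figure D4:**
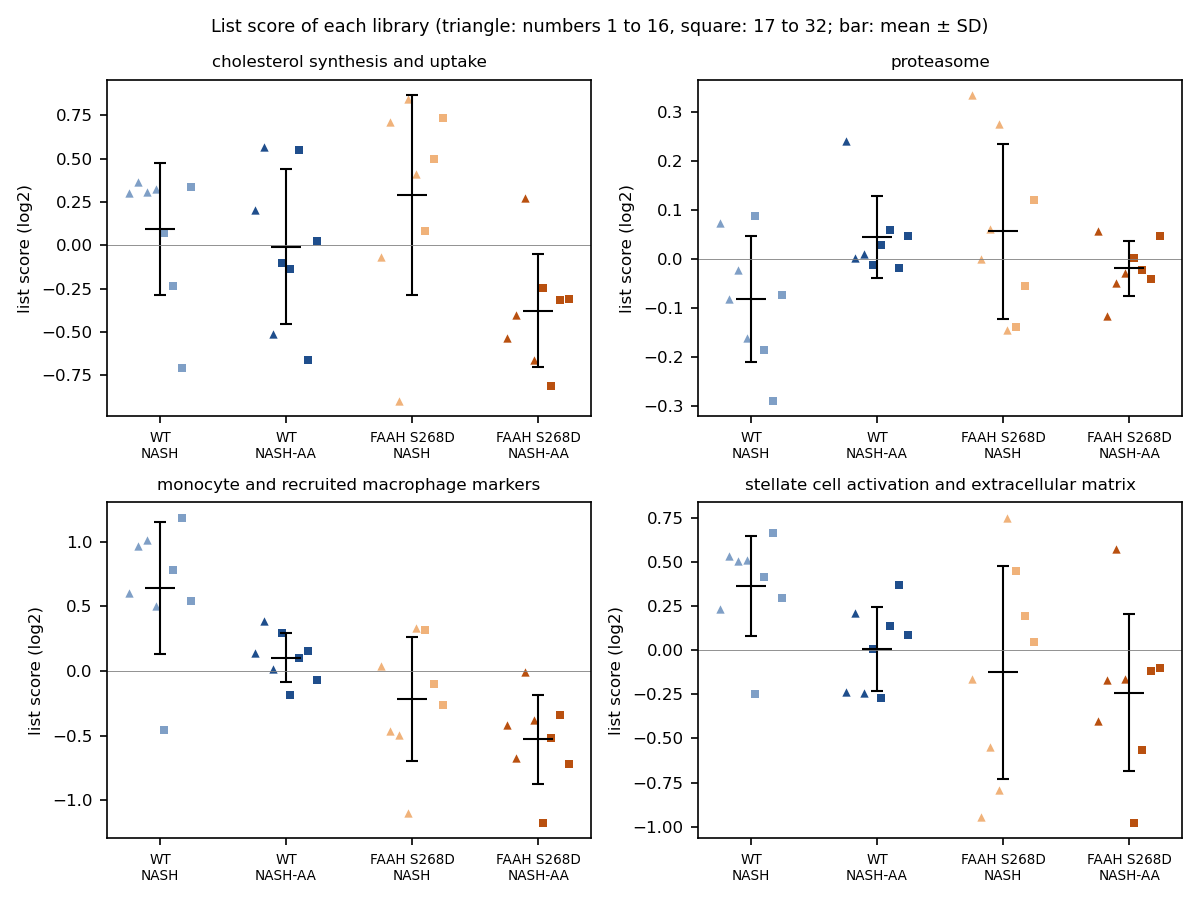
List score (log2, vertical axis) of each library in the 4 groups for 4 lists; triangles are library numbers 1 to 16, squares 17 to 32, and bars give the mean ± SD of 8 libraries. In FAAH S268D NASH the cholesterol score of replicate 3 is the lowest of all 32, and in WT NASH the monocyte score of replicate 5 lies at -0.46 while the other 7 lie above 0.50.

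Detoxifying enzymes divided. Of 35 conjugation enzymes, which attach glucuronate, sulfate or glutathione to drugs and steroids, 29 had an estimate below 0. At an unadjusted p under 0.05 were 5 of these (14.3%, against 2.21% of all genes on that side). The median diet differences were 0.33 in WT and 0.080 in FAAH S268D. The leading members were Ugt1a6a (-0.28 ± 0.12), Mgst1 (-0.34 ± 0.15), Gstm6 (-0.38 ± 0.17) and Sult5a1 (-1.14 ± 0.53), with unadjusted p from 0.0292 to 0.0379 by limma-voom. Ugt1a6a shares exons with the other Ugt1a genes, so its reads could be split among them. Without WT NASH replicate 7 no conjugation enzyme had an unadjusted p under 0.05, and without WT NASH replicate 5 9 had.

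The 37 xenobiotic cytochromes had a median of 0.00048, but -0.32 in library numbers 1 to 16 and 0.22 in 17 to 32. In those ranges 10 and 28 of the 37 lay above 0. The median changed sign for 17 of the 32 single libraries left out. At an unadjusted p under 0.05, 5 members were higher and 2 lower (18.9% together, against 4.22% of all genes). The higher ones were led by the Cyp3a subfamily, which the xenobiotic receptor PXR switches on. Cyp3a11 (ENSMUSG00000056035, chr5:145854426-145879964, minus strand) ran from 2115 to 4234 CPM in WT NASH (median 3212) and from 1396 to 2893 in WT NASH-AA (median 1886). In FAAH S268D it ran from 1048 to 3115 CPM on NASH (median 1897) and from 1487 to 3357 on NASH-AA (median 2555). In WT no NASH-AA library reached the NASH median and 6 of 8 lay below the lowest NASH library, while in the mutant 7 of 8 NASH-AA libraries lay above the NASH median. The diet difference of Cyp3a11 was -0.72 ± 0.20 (SE) in WT and 0.37 ± 0.20 in the mutant, an interaction of 1.09 ± 0.28 (limma-voom, unadjusted p = 0.000571, adjusted p = 0.906), with 1.21 and 0.75 in the 2 ranges of library numbers. Cyp3a44 had an interaction of 1.40 ± 0.42 and Cyp3a59 one of 0.68 ± 0.26 (unadjusted p = 0.0022 and 0.0123 by limma-voom). Cyp3a genes lie side by side and resemble each other closely, so the counts of each are uncertain. Cyp2f2, a periportal cytochrome, leaned the other way (-0.58 ± 0.22, unadjusted p = 0.0139 by limma-voom). Slco1a4, an organic anion uptake carrier of the bile acid transport list, had an interaction of 1.25 ± 0.41 (unadjusted p = 0.0051 by limma-voom).

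The major urinary proteins, pheromone carriers made by the liver under growth hormone, had the lowest median of all lists, with all 21 members below 0 and 0 at an unadjusted p under 0.05. Mup17 ran from 9.72 to 270.0 CPM in WT NASH (median 86.2), from 59.9 to 627.2 in WT NASH-AA (153.5), from 68.2 to 3496 in FAAH S268D NASH (427.3) and from 70.2 to 1104 in FAAH S268D NASH-AA (388.2). These spreads were wide and overlapped, and the interaction of Mup17 was -2.10 ± 1.12 (unadjusted p = 0.0697 by limma-voom). Mup9 (-1.35 ± 0.81), Mup15 (-2.28 ± 1.37) and Mup21 (-0.81 ± 0.49) had unadjusted p from 0.105 to 0.109. Mup genes are near-identical copies between which reads can be split, and the list score had a within-group SD from 0.76 to 1.66. Without FAAH S268D NASH replicate 3, the library with the highest Mup17, the list median was -0.66, and with sample quality weights it was -0.44.

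Among immune lists, monocyte, MHC class II, dendritic, T and NK cell and chemokine lists had medians of 0.26 to 0.40. Kupffer cell markers had a median of 0.14 with 10 of 17 above 0, MHC class I genes 0.023 with 12 of 21, and B and plasma cell markers -0.072 with 9 of 19 (0.13 without FAAH S268D NASH-AA replicate 5). For monocyte, MHC class II, dendritic and chemokine genes the median diet difference was below 0 in both genotypes and lay closer to 0 in the mutant. In bulk tissue, fewer cells of a type and less RNA per cell cannot be told apart. In the monocyte and recruited macrophage list 22 of 24 members had an estimate above 0 (52.4% of all genes did) and 0 had an unadjusted p under 0.05. The diet difference had a median of -0.57 in WT, with all 24 members below 0, and of -0.30 in FAAH S268D, with 23 below 0. The list score averaged 0.64 ± 0.51 (SD, n = 8) on NASH and 0.10 ± 0.19 on NASH-AA among WT libraries, and -0.22 ± 0.48 and -0.53 ± 0.34 among FAAH S268D libraries. Among the members with the smallest p were the macrophage pore protein Mpeg1 (0.27 ± 0.19), the NADPH oxidase subunit Cybb (0.41 ± 0.30) and the lysosomal Cd68 (0.35 ± 0.29), at unadjusted p from 0.166 to 0.233 by limma-voom. In library numbers 17 to 32 17 of the 24 lay below 0. The list median of 0.26 was 0.13 without FAAH S268D NASH replicate 4 and 0.42 without WT NASH replicate 5.

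MHC class II genes, whose products show peptides to helper T cells, had 13 of 15 estimates above 0 and 0 at an unadjusted p under 0.05. H2-Eb1, a class II beta chain, had medians of 126.6 and 55.0 CPM in WT (NASH, NASH-AA) and of 63.6 and 39.1 in FAAH S268D, with an interaction of 0.61 ± 0.48 (unadjusted p = 0.213 by limma-voom). Its groups ran from 44.3 to 194.2, 41.9 to 82.5, 16.7 to 120.0 and 20.1 to 57.7 CPM in that order, so they overlapped. Ciita, the master regulator of the class, had an estimate of 0.75 ± 0.50 and H2-Oa one of 0.46 ± 0.37, while the DNA-binding partner Rfxank had -0.21 ± 0.11. The diet difference of the list was below 0 in both genotypes, with medians of -0.56 in WT and -0.23 in FAAH S268D, and its interaction median of 0.40 was 0.25 without FAAH S268D NASH replicate 2.

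The dendritic and the T and NK cell lists had 1 member each at an unadjusted p under 0.05, both higher (5.88% and 4.76%). Of all genes 4.22% had such a p in either direction and 2.01% on the higher side. Clec9a, which marks cross-presenting dendritic cells, ran from 2.31 to 4.32 CPM in WT NASH (median 3.55), from 2.24 to 2.86 in WT NASH-AA (2.52), from 1.38 to 2.742 in FAAH S268D NASH (1.96) and from 1.75 to 2.82 in FAAH S268D NASH-AA (2.25). No WT library on NASH-AA reached the WT NASH median and 7 of 8 mutant libraries exceeded theirs, an interaction of 0.56 ± 0.18 (limma-voom, unadjusted p = 0.0047, adjusted p = 0.906), though it was 0.95 in library numbers 1 to 16 and 0.17 in 17 to 32. Batf3 (0.48 ± 0.30), Irf8 (0.38 ± 0.27) and Cd86 (0.38 ± 0.26), regulators and a costimulator of these cells, did not reach that p. Of the 17 dendritic cell markers tested 14 lay above 0 and 3 below. The lowest was Xcr1 (-0.29 ± 0.55), at no more than 0.82 CPM in any library. Klrk1, the activating receptor NKG2D, ran from 1.69 to 2.78 CPM in WT NASH (median 2.51), from 1.02 to 2.13 in WT NASH-AA (1.67), from 0.874 to 1.97 in FAAH S268D NASH (1.31) and from 0.952 to 1.92 in FAAH S268D NASH-AA (1.45). In WT 5 of 8 NASH-AA libraries lay below the lowest NASH library, and in the mutant 6 of 8 lay above the NASH median, an interaction of 0.70 ± 0.25 (unadjusted p = 0.0074 by limma-voom). Cd3e, Cd3g and Nkg7, which mark T and NK cells, had estimates of 0.65 ± 0.39, 0.70 ± 0.46 and 0.70 ± 0.53, and 17 of the 21 T and NK cell markers lay above 0. This list kept its sign in both ranges of library numbers, at 0.071 and 0.53.

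In the chemokine, cytokine and adhesion list 29 of 33 members lay above 0 and 1 had an unadjusted p under 0.05 (3.03%, against 2.01% of all genes on that side). That member was Il33, an alarmin of endothelial and stellate cells (0.73 ± 0.30, unadjusted p = 0.0195 by limma-voom). Ccl4 (1.23 ± 0.69), Il1a (0.33 ± 0.19) and Cxcl12 (0.18 ± 0.11) followed. Of the 40 stellate and matrix genes 37 lay above 0 and 0 had an unadjusted p under 0.05, the leading members being the fibrogenic cytokine Tgfb1 (0.27 ± 0.19), Postn (0.49 ± 0.37), the matrix protein Fn1 (0.20 ± 0.15) and the protease inhibitor Timp2 (0.32 ± 0.25). In library numbers 17 to 32 4 of these 40 lay above 0. With sample quality weights 27 of 40 lay above 0 and the median of 0.22 was 0.076. The median was 0.081 without FAAH S268D NASH-AA replicate 3, and 0.085, 0.13 and 0.35 without FAAH S268D NASH replicate 2, 4 and 5. Cholangiocyte markers were above 0 in 15 of 19 cases, with the leading members Pkhd1 (0.41 ± 0.26), Cd24a (0.57 ± 0.48), Prom1 (0.47 ± 0.40) and Sox4 (0.43 ± 0.38) and 0 at an unadjusted p under 0.05. Their median of 0.28 was 0.060, 0.15, 0.16 and 0.49 without FAAH S268D NASH replicate 4, 2, 3 and 5, 0.14 and 0.11 without WT NASH replicate 2 and 7, 0.12 with quality weights and -0.089 in library numbers 17 to 32. Of 23 sinusoidal endothelial markers 18 lay above 0, with the scavenger receptor Stab2 at 0.35 ± 0.16 (unadjusted p = 0.0395 by limma-voom), Tie1 at 0.26 ± 0.14, Tek at 0.33 ± 0.18 and Clec1b at 0.39 ± 0.22. The endothelial median of 0.19 was 0.11 without WT NASH-AA replicate 1.

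The hepatocyte markers measured beside these lists leaned the other way, with 18 of 25 below 0 and a median of -0.11. Alb itself had an estimate of 0.019, and Ttr one of -0.33 ± 0.14 (unadjusted p = 0.0253 by limma-voom). The monocyte and hepatocyte leanings were both found in library numbers 1 to 16 (medians 0.55 and -0.25) and not in 17 to 32 (-0.036 and 0.088). The part of cell composition in any list was not tested.

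Genes around FAAH itself showed no common leaning. Of 22 members of the list of FAAH, N-acyl amide and taurine metabolism, 11 lay above 0, with a median of 0.0022. At an unadjusted p under 0.05 were 2 members, both higher (9.09%, against 2.01% of all genes on that side). Slc6a6, the taurine transporter, ran from 95.9 to 139.2 CPM in WT NASH (median 123.5) and from 78.0 to 125.2 in WT NASH-AA (median 102.1). In FAAH S268D it ran from 53.7 to 121.9 CPM on NASH (median 111.6) and from 103.7 to 129.0 on NASH-AA (median 120.7). In WT 1 of 8 NASH-AA libraries lay above the NASH median of Slc6a6 and in the mutant 6 of 8 did, with an interaction of 0.44 ± 0.16 (SE; limma-voom, unadjusted p = 0.0101, adjusted p = 0.906). Without FAAH S268D NASH replicate 1, the shallowest library and the one at 53.7 CPM, the estimate was 0.325. With sample quality weights it was 0.34. Gdpd3 and Gdpd1, lysophospholipase D enzymes that can make N-acyl ethanolamines, had estimates of 1.06 ± 0.43 and 0.74 ± 0.39 (unadjusted p = 0.0185 and 0.0675). Mgll, the lipase that degrades the endocannabinoid monoacylglycerol, had -0.21 ± 0.16.

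The 15 genes with the smallest p in each direction, among genes with a mean of at least 1 CPM, all kept their sign in both ranges of library numbers. They were chosen by their p in all 32 libraries, so that count is a description. The same holds for the orderings of libraries given for genes chosen by their p, here and above. Such orderings follow in part from the choice and test nothing. On the high side, beside Cyp3a11, stood Cd47, the surface signal that holds off phagocytes (chr16:49800533-49915010, plus strand). Cd47 ran from 70.8 to 85.5 CPM in WT NASH (median 77.0), from 63.7 to 75.7 in WT NASH-AA (69.7), from 59.2 to 76.5 in FAAH S268D NASH (62.9) and from 64.9 to 74.1 in FAAH S268D NASH-AA (68.9). No WT library on NASH-AA reached the WT NASH median of Cd47 and all 8 mutant ones exceeded theirs, an interaction of 0.26 ± 0.072 (SE; limma-voom, unadjusted p = 0.000928, adjusted p = 0.906). Others were the phosphatidylinositol transfer protein Pitpnc1 (0.38 ± 0.11), Pip5k1a (0.27 ± 0.081), Pik3cb (0.32 ± 0.099), the actin crosslinker Actn1 (0.40 ± 0.12) and the microtubule-end protein Mapre2 (0.46 ± 0.14). The rest were Entpd4 (0.58 ± 0.16), Plxdc1 (0.96 ± 0.28), Naa40 (0.25 ± 0.081), Tmcc2 (0.48 ± 0.15), the metalloproteinase Adamts7 (0.78 ± 0.25), Setbp1 (1.19 ± 0.38), Rab2b (0.45 ± 0.15) and the transcription factor Plagl2 (0.39 ± 0.13). Setbp1, at low counts, ran from 1.39 to 2.28 CPM in WT NASH (median 1.73), above all WT NASH-AA libraries at 0.833 to 1.34 (median 1.28), a separation in that direction shown by 27 of 14899 genes (0.181%). Its mutant diet groups overlapped, from 0.553 to 3.27 CPM on NASH (median 1.44) and from 1.42 to 5.45 on NASH-AA (median 3.11). All 15 had diet differences of opposite sign in the 2 genotypes.

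On the low side Pglyrp2, a peptidoglycan amidase that the liver secretes (chr17:32412459-32424167, minus strand), ran from 112.1 to 145.6 CPM in WT NASH (median 124.1), from 94.3 to 145.5 in WT NASH-AA (114.5), from 99.6 to 137.0 in FAAH S268D NASH (119.6) and from 82.5 to 91.9 in FAAH S268D NASH-AA (88.5). All 8 mutant NASH-AA libraries lay below all 8 mutant NASH libraries, a separation in that direction shown by 6 of 14899 genes (0.0403%) and in the other direction by 3 (0.0201%), while the WT groups overlapped. In WT 15 genes (0.101%) had all NASH-AA libraries above all NASH libraries, none of them named here. The diet difference of Pglyrp2 was -0.11 ± 0.076 (SE) in WT and -0.44 ± 0.075 in the mutant, an interaction of -0.33 ± 0.11 (limma-voom, unadjusted p = 0.0037, adjusted p = 0.906). Scp2, a sterol carrier and peroxisomal thiolase, ran from 2853 to 3839 CPM in WT NASH (median 3237), from 3226 to 3706 in WT NASH-AA (3463), from 3018 to 4257 in FAAH S268D NASH (3542) and from 2902 to 3327 in FAAH S268D NASH-AA (3013). In WT 7 of 8 NASH-AA libraries lay above the NASH median of Scp2 and in the mutant none did, an interaction of -0.30 ± 0.097 (unadjusted p = 0.0036 by limma-voom). Beside Mvk the others were the noncoding RNA Mirt2 (-1.24 ± 0.32), Lyrm2 (-0.47 ± 0.12), the glycogen-related ubiquitin ligase Nhlrc1 (-0.56 ± 0.16), the GMP reductase Gmpr2 (-0.34 ± 0.099), Uxt (-0.32 ± 0.096), the chaperones Hspb8 (-0.48 ± 0.14) and Hspa14 (-0.26 ± 0.084), Extl1 (-0.67 ± 0.20), the vitamin C transporter Slc23a1 (-0.47 ± 0.15), Ipp (-0.35 ± 0.11), the RNA exosome subunit Exosc7 (-0.33 ± 0.10) and Ccdc162 (-0.51 ± 0.17).

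**Figure D5:**
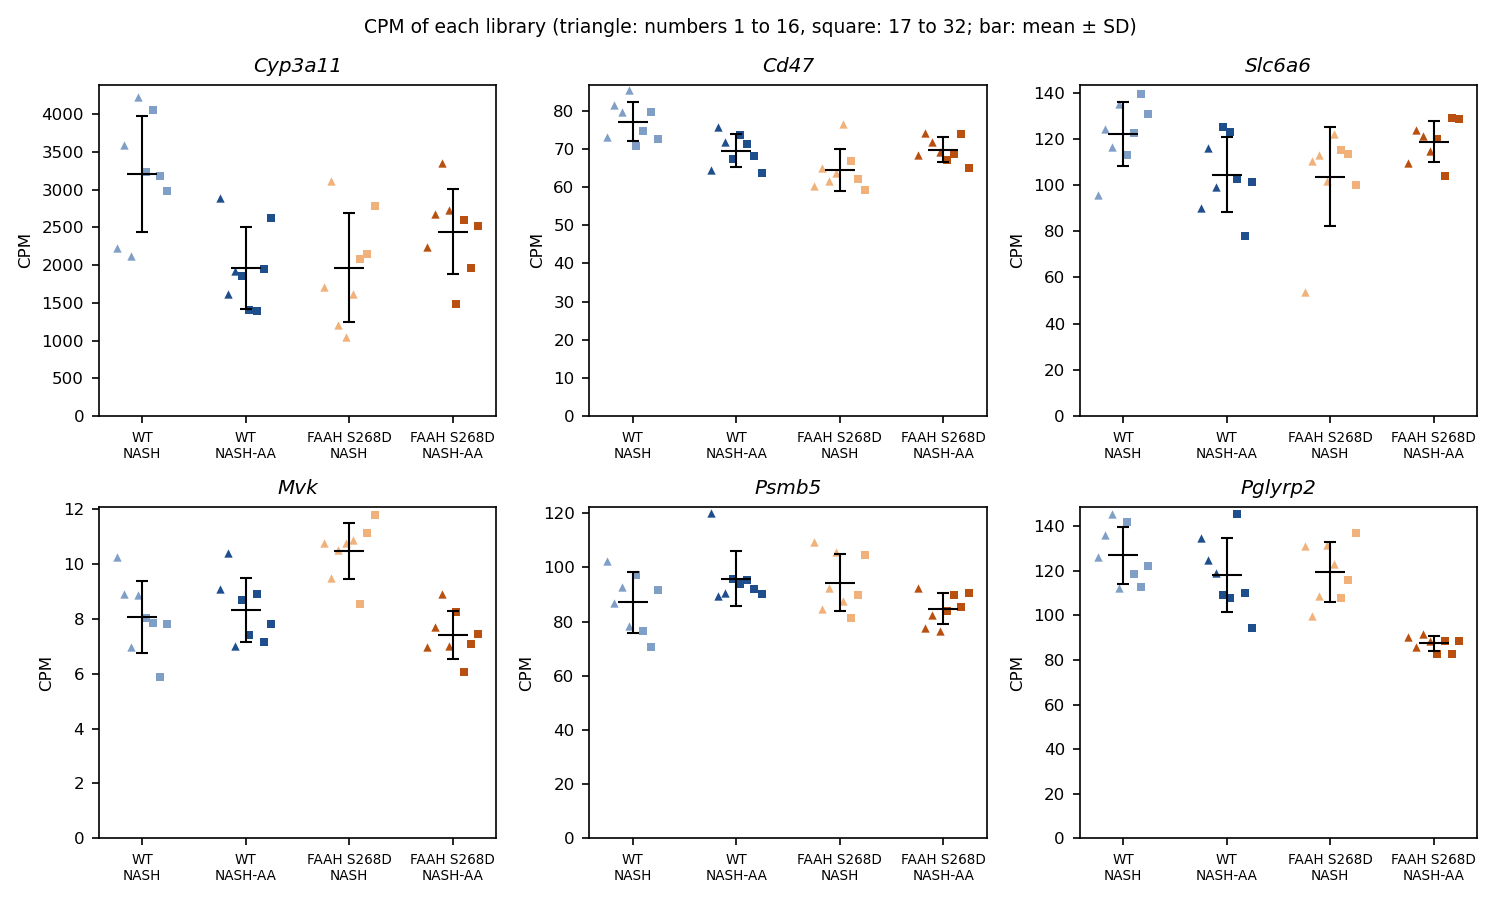
CPM (vertical axis, from 0) of each library in the 4 groups for 6 genes; triangles are library numbers 1 to 16, squares 17 to 32, and bars give the mean ± SD of 8 libraries. For Pglyrp2 the FAAH S268D NASH-AA libraries, at 82.5 to 91.9, lie below all other FAAH S268D libraries, and for Cyp3a11 the WT means are 3204 on NASH and 1956 on NASH-AA.

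Metabolic lists outside the first 16 are given by their counts. Of all genes, 2.21% were lower and 2.01% higher at an unadjusted p under 0.05. Glucose handling had 5 of 24 members lower at an unadjusted p under 0.05, among them the fructose enzymes Tkfc (-0.44 ± 0.19) and Khk (-0.35 ± 0.16), but 1 without WT NASH replicate 7. Peroxisome biogenesis had 3 of 22, among them the lysosomal cobalamin transporter Abcd4 (-0.38 ± 0.14) and Pex16 (-0.35 ± 0.14), and 20 of 22 members below 0. Glycolysis and hypoxia had 3 of 23, Tpi1 (-0.24 ± 0.096), Gapdh (-0.29 ± 0.14) and Ldha (-0.28 ± 0.14). Yet 11 of the 23 lay above 0, and the median was -0.035. Without FAAH S268D NASH replicate 1 the estimates of Gapdh and Ldha were -0.23 and -0.19. The methionine cycle had 2 lower, the arsenic methyltransferase As3mt (-0.53 ± 0.20) and Pemt (-0.27 ± 0.13), which makes phosphatidylcholine, and 1 higher, Mat2a (0.25 ± 0.11), of 23. Amino acid catabolism had 28 of 29 members below 0 with a median of -0.13, and cytosolic ribosomal proteins 75 of 78 with a median of -0.069. Both were on the other side in library numbers 17 to 32, at 0.047 and 0.13. Glucose handling had a median of -0.049 over all 32 libraries, with 15 of 24 members below 0. That median went from -0.17 in numbers 1 to 16 to 0.096 in 17 to 32, and that of the methionine cycle from -0.30 to 0.032. The ribosomal median was 0.0092 without FAAH S268D NASH replicate 1, the shallowest library, and 0.068 with sample quality weights.

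Complement and coagulation factors had 2 of 38 members higher at an unadjusted p under 0.05 (5.26%, against 2.01% of all genes). The list as a whole did not lean that way, with 22 of 38 members below 0 and a median of -0.033. The 2 higher members were Pros1 (0.20 ± 0.096) and C3. C3, the hub of the complement cascade, ran from 5087 to 11940 CPM in WT NASH (median 6319) and from 4743 to 9177 in WT NASH-AA (median 7072). In FAAH S268D it ran from 3931 to 7622 CPM on NASH (median 6050) and from 7167 to 8780 on NASH-AA (median 7793), and 7 of 8 NASH-AA libraries exceeded the highest NASH library. The interaction of C3 was 0.47 ± 0.21 (unadjusted p = 0.0281 by limma-voom). It was 0.36 without WT NASH replicate 7, the library at 11940 CPM, and 0.32 with sample quality weights.

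Of the remaining lists each had at most 2 members at an unadjusted p under 0.05 in either direction. Cell division had a median of 0.033 with 22 of 38 members above 0, but 0.45 with 36 above 0 in library numbers 1 to 16 and -0.48 with 3 above 0 in 17 to 32, and 8 of the 32 single libraries turned its sign when left out (-0.11 without FAAH S268D NASH replicate 3). On the high side, TGF-beta and YAP targets had 23 of 24 members above 0 (median 0.17), immediate early genes 19 of 23 (0.19), lipid-associated macrophage markers 15 of 20 (0.19) and oncofetal genes 14 of 19 (0.19). The interferon response had 26 of 34 above 0 (0.14), innate sensing 25 of 34 (0.12) and the leukotriene and prostaglandin pathway 16 of 24 (0.091). All 7 gallbladder and smooth muscle genes (0.40) and all 6 neutrophil markers (0.19, but -0.033 without FAAH S268D NASH replicate 4) lay above 0. All 9 of these medians lay below 0 in library numbers 17 to 32, from -0.49 for neutrophil markers to -0.044 for the leukotriene and prostaglandin pathway. The growth hormone and IGF1 axis (16 of 21, 0.12) and lysosome genes (22 of 30, 0.071) lay above 0 in both ranges, as did Kupffer cell markers.

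On the low side, heat shock and chaperones had 17 of 18 members below 0 (median -0.18, but 0.015 in library numbers 1 to 16), mitochondrial ribosome and import 32 of 38 (-0.10) and acute-phase proteins 22 of 27 (-0.11). NRF2 targets and antioxidants had 21 of 28 below 0 (-0.10), PPARalpha targets and fatty acid oxidation 19 of 26 (-0.059) and the unfolded protein response 19 of 29 (-0.068, but 0.044 without WT NASH-AA replicate 8). Bile acid synthesis and transport had 17 of 25 below 0 (-0.082), periportal genes 16 of 24 (-0.11), pericentral genes 16 of 23 (-0.077), iron handling 15 of 24 (-0.053) and triglyceride synthesis 8 of 14 (-0.077). Adipocyte genes had 5 of 7 below 0 (-0.23, but 0.057 without FAAH S268D NASH-AA replicate 5). In library numbers 17 to 32 the medians of mitochondrial ribosome and import (0.073), PPARalpha targets (0.065) and bile acid genes (0.026) lay above 0. So did those of periportal (0.19) and pericentral genes (0.15). The unfolded protein response had 0.22 in numbers 1 to 16 and -0.25 in 17 to 32. Acute-phase, NRF2, iron, triglyceride and adipocyte medians lay below 0 in both ranges. Medians within 0.05 of 0 were also found for splicing factors (0.017), the circadian clock (0.0090), autophagy (-0.032) and p53 targets (-0.015). The same held for polyunsaturated fatty acid synthesis (-0.049), erythroid genes (0.031) and platelet genes (0.028). In numbers 1 to 16 and 17 to 32, p53 targets had 0.20 and -0.26, erythroid genes -0.35 and 0.44 and platelet genes 0.23 and -0.13.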

How the data were processed

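Whole-liver mRNA-seq of 32 libraries was analysed from the merged gene table that the authors deposited, whose values are estimated counts per gene, some with up to 3 decimals, recorded here as other because spreadsheet formatting had altered part of the cells. The submitters' processing notes name Trim Galore 0.6.7, UMI-tools 1.1.2, STAR 2.7.10 and GRCm38; whether UMIs were collapsed and reads counted by strand is not given in the sources used here. Of 1775584 cells 87.9% were whole numbers, and the rest (grouped digits, 11.4%, clock times, decimals and day fractions) were restored and rounded to whole counts. The restored kinds lay within 0.19 on the log2 scale of their genes' medians, in the median over cells. The 1558 cells that had 2 possible readings took the one closer to the depth-scaled gene median. For these cells the distance follows from that choice and does not check the reading. Because the units table could not take these columns as counts, edgeR and DESeq2 were not used.

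Genes needed 10 counts at the median depth in at least 8 libraries and 15 in all. Counts were scaled by TMM factors (trims 30% and 5%), turned into log2 CPM with a prior count of 0.5, weighted by voom and fitted with limma 3.58.1 (R 4.3.3), with 1 mean per group and Benjamini-Hochberg adjustment over all 14899 genes. Gene lists were described by counts and medians only. Named genes are Faah, the 15 with the smallest p in each direction (mean of at least 1 CPM, no predicted symbols) and up to 4 members with the smallest p of each list described, a few of which are not reported here. The members and lists were chosen with earlier results of these data known. Coordinates are from GENCODE M21 (55141 of 55487 identifiers found), promoter windows from RefSeq. Depth limits precision: the lowest library had 3851400 counts. Replicate libraries were not duplicates (0 of 112 pairs identical). The test was checked on simulated counts, and 43 alternative settings were run.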

Additional observations from a re-analysis of the deposited data

Results flagged for a closer look

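Of the 140 group values checked, 13 held a library set far apart from the other 7 by Dixon's criterion, where chance alone flags about 1 group in 20. In WT NASH replicate 5 the scores of 4 lists were the lowest of the group: monocyte and recruited macrophage markers (-0.46, the next library at 0.50), chemokines, cytokines and adhesion (-0.32, next 0.49), dendritic cell markers (-0.32, next 0.31) and stellate cell activation and extracellular matrix (-0.25, next 0.23). The same library had the highest Faah of its group, at 187.5 CPM with the next at 157.0. In FAAH S268D NASH replicate 3 the lipid droplet coat and lipases score was -0.91 (next 0.032) and Mup17 was at 3496 CPM (next 1146). WT NASH-AA replicate 1 was the highest of its group for the proteasome score (0.24, next 0.058), for Psmb5 (119.9 CPM, next 95.8) and for Psmc4 (107.1 CPM, next 98.4). The remaining flags were Cd47 in FAAH S268D NASH replicate 5 (76.5 CPM, next 66.8), Plin2 in FAAH S268D NASH-AA replicate 4 (371.3 CPM, next 486.2) and Slc6a6 in FAAH S268D NASH replicate 1, the shallowest library (53.7 CPM, next 99.8).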

How the results depend on the processing

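The count of genes at an adjusted p under 0.05 was 0 under all 43 alternatives, 32 of which left out 1 library each. The 628 genes at an unadjusted p under 0.05 became 1386 with no filter on low counts, 951 in library numbers 17 to 32 alone and 1020 with sample quality weights; with 1 library left out they ran from 400 (without WT NASH replicate 7) to 1135 (without WT NASH replicate 5), beyond 1.5 times also without FAAH S268D NASH replicate 4 (408) or replicate 5 (1107). The cause was not tested. In library numbers 1 to 16 and 17 to 32 alone, the list medians moved by more than the within-group SD to 0.66 and -0.12 for chemokines, cytokines and adhesion, 0.82 and -0.43 for stellate cell activation and extracellular matrix, 0.47 and -0.026 for sinusoidal endothelial markers, -0.38 and 0.028 for oxidative phosphorylation, nuclear genes and -0.36 and 0.051 for lipoproteins and their assembly, and in 17 to 32 to -0.026 for dendritic cell markers. Of 113 named genes 9 changed sign, each in library numbers 17 to 32 alone: Mup21 (0.067), Cd86 (-0.047), Sox4 (-0.22), Ccl4 (-0.095), Mpeg1 (-0.036), Cd68 (-0.022), Postn (-0.42), Tie1 (-0.078) and Pemt (0.020). The filter of 1 CPM in all libraries left no value for 14 named genes and for the T and NK cell list.

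Replicate numbers did not pair the libraries: same-numbered libraries had correlations of their deviations from -0.38 to 0.33, and 10 of 48 correlated best with their own number. With the replicate block, 704 genes had an unadjusted p under 0.05 and 0 an adjusted one.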
